A study of Mus musculus with 14 samples.

Results

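The 9 genes described here, Dusp1, Dusp4, Dusp5, Dusp6, Dusp8, Dusp10, Spry1, Spry2 and Spry4, encode dual-specificity phosphatases and Sprouty proteins that restrain signalling by mitogen-activated protein kinases (MAPK). They were chosen by gene symbol, with earlier results of these data known, from a table of 24411 genes. All 9 were among the 14300 genes that passed the filter on low counts. Bulk RNA sequencing had been performed on kidneys of male mice aged 8 weeks, strain C57/B6, as controls (day 0, 4 libraries) and 1 or 3 days after renal ischemia/reperfusion injury (IRI, 5 libraries for each of day 1 and day 3). IRI is a model of acute kidney injury in which blood flow to the kidney is stopped and then restored. The day 0 kidneys are called controls, and the sources used here do not say whether those mice had a sham operation. All groups share strain, sex, age and tissue, and no allele or further treatment is named in any of them. Nothing in the labels says which animals the libraries came from, so the p-values measure the spread between these libraries.

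MAPK are switched on when an upstream kinase adds phosphate to a threonine and a tyrosine in their activation loop, and a dual-specificity phosphatase removes both phosphates again. Many of these phosphatases are made in response to the kinase they switch off, which closes a negative feedback loop. ERK, the MAPK of growth factor signalling, is the substrate of the nuclear phosphatase DUSP5 and of the cytoplasmic phosphatase DUSP6. DUSP8 and DUSP10 act mainly on the stress kinases JNK and p38, and DUSP1 and DUSP4 are nuclear enzymes with a broader choice of substrate. Sprouty proteins act further upstream, between receptor tyrosine kinases and ERK. Sprouty 1 is known in the kidney for restraining RET signalling while the ureteric bud branches.

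Each library held about 12485600 to 20477000 reads on genes. Within each of days 1 and 3 the deposited library names carry a number of either 1 digit or 3 digits, and the sources used here do not say what this means. The 3-digit libraries were replicates 1 and 2 of day 1 and replicates 1, 2 and 3 of day 3, whereas all 4 libraries of day 0 have 1 digit. The formats differed widely: 16.4% of all genes tested had lower counts in 3-digit than in 1-digit libraries of day 1, so the comparisons are also given within a format. A comparison of 3-digit libraries with day 0 cannot be told apart from a difference of format. The day 0 libraries carried the RNA of kidney tubule, with 12 of 12 proximal tubule markers detected and a summed level of 23641 to 25736 CPM (gene counts scaled to the same total in every library). In bulk tissue, fewer cells of a type and less RNA per cell cannot be told apart.

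The start regions of the genes differ in known regulatory motifs. RefSeq (GRCm38.p6) gave a start site for 7 of the 9 genes, all but Dusp4 and Spry4. The 250 bases before the start were searched on both strands for a cyclic AMP response element (CRE, TGACGTCA), its short form TGACG, an AP-1 element (TGANTCA), the ETS motif GGAAGT, the TATA box TATAAA and the CArG box bound by serum response factor. A CRE contains the short form on both strands. The 4 sequences below, written 5′ to 3′ on the gene's strand, are shown because Dusp1, Dusp5 and Dusp8 hold motifs that few promoters hold, with Dusp6 as an example of the 4 genes that hold none. Capitals mark a CRE or short CRE in Dusp1, the CREs in Dusp8, and the CArG boxes and the short CRE in Dusp5.
Dusp1: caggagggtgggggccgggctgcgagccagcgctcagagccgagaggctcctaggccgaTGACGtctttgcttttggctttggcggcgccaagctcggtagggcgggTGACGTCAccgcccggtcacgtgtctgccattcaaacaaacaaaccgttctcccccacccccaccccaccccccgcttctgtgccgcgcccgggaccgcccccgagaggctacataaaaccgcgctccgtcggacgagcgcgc
Dusp8: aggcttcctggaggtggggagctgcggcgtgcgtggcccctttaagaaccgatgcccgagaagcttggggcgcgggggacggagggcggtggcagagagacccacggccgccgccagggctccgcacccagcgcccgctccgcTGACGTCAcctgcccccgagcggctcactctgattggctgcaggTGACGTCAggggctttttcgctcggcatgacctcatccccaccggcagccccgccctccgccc
Dusp5: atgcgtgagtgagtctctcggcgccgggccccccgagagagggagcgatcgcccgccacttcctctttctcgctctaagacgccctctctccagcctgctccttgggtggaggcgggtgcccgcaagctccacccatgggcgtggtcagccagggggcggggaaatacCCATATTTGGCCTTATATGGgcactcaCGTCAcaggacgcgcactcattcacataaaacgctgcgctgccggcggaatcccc
Dusp6: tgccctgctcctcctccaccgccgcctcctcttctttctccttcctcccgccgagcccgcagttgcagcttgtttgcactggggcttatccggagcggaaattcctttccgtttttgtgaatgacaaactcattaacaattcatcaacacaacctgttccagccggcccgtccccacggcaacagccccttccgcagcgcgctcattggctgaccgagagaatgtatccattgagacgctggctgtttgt

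The Dusp1 sequence lies at chr17:26508473-26508722 on the minus strand, the Dusp8 sequence at chr7:142095285-142095534 on the minus strand, the Dusp5 sequence at chr19:53528895-53529144 on the plus strand and the Dusp6 sequence at chr10:99262981-99263230 on the plus strand. A CRE was present 143 to 136 bases before the start of Dusp1, and 2 CREs were present before Dusp8, from 107 and from 63 bases upstream. A CRE was found in 1.55% of 32851 RefSeq promoter windows of the same length. Dusp5 held a pair of adjacent CArG boxes from 82 to 63 bases upstream, a motif present in 1.47% of the windows, and a short CRE from 55 bases upstream, present in 17.8%. The ETS motif was found in Dusp5 alone, against 19.7% of the windows. No AP-1 element (6.75% of the windows) and no TATA box in this spelling (12.4%) was found in any of the 7 genes. No motif of the set was found before Dusp6, Dusp10, Spry1 or Spry2, which says only that these letters are absent from this window. Of these 4 genes, Dusp10, Spry1 and Spry2 rose at day 1 and Dusp6 was not called.

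**Figure D1:**
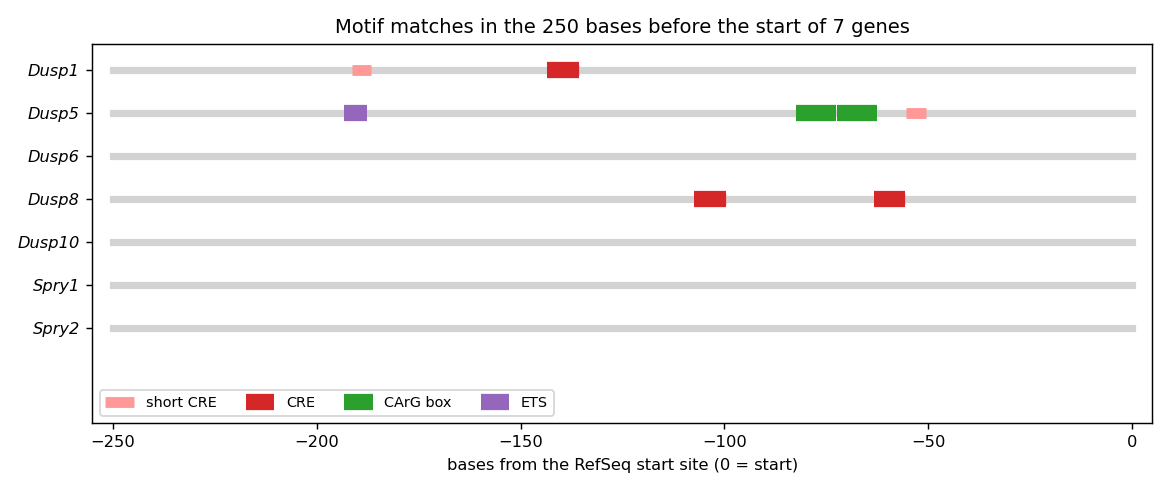
Motif matches in the 250 bases before the RefSeq start site of 7 genes, with distance from the start in bases on the horizontal axis and 1 grey bar per gene. Coloured blocks are CRE, short CRE, CArG box and ETS matches on either strand, and they occur in Dusp1, Dusp5 and Dusp8 and in none of the other 4 genes.

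At day 0 the 9 genes were expressed at very different levels. Per kilobase of annotated exon, Dusp1 (22.3 ± 1.80 CPM per kb, SD, n = 4) and Dusp6 (22.04 ± 1.53) were the highest, and their libraries overlapped. Spry1 (5.67 ± 0.681), Spry2 (5.01 ± 0.497) and Dusp4 (4.95 ± 0.559) formed a middle group whose neighbours in this order overlapped. Spry4 (1.69 ± 0.498), Dusp8 (0.776 ± 0.135), Dusp10 (0.346 ± 0.0765) and Dusp5 (0.261 ± 0.0234) were lower, and of these only Dusp10 and Dusp5 overlapped. Levels per kb at day 1 ran from 68.8 ± 47.0 for Dusp1 (SD, n = 5) to 2.03 ± 0.290 for Dusp10, and Dusp5, last at day 0, stood at 9.89 ± 4.78. Dusp8 and Dusp10 were the only neighbours in that order that did not overlap at day 1. At day 3 they ran from 21.0 ± 8.52 for Dusp1 to 1.79 ± 0.323 for Dusp10, and all neighbours overlapped.

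Compared with day 0, 8 of the 9 genes rose at day 1 and none fell, by edgeR's quasi-likelihood test with Benjamini-Hochberg adjustment over all 14300 genes at an adjusted p under 0.05. Of all genes tested, 23.3% rose in this comparison. The median log2 fold change was 2.01 over the 9 genes and 0.0073 over all genes. In 7 of the 9 genes every library of day 1 was above every library of day 0, against 21.5% of all genes. At day 3, 5 of the 9 were still higher than at day 0, when 19.5% of all genes were higher, and Dusp6 was lower, as were 13.8% of all genes. From day 1 to day 3, 6 of the 9 fell, against 7.39% of all genes. The comparisons with day 0 share the same control libraries. Markers of other cells and of injury moved with the days too. All 6 neutrophil markers tested were higher at both days, with a summed level of 1.33 to 2.07 CPM at day 0, 49.3 to 206 at day 1 and 19.6 to 419 at day 3, and 9 of 10 tubular injury markers were higher at both days. Of 12 proximal tubule markers 4 were lower at day 1 and 6 at day 3. Of 8 thick limb and distal tubule markers 4 were lower at day 1 and 6 at day 3, and of 8 collecting duct markers 3 and 5. At day 3 higher levels were called for 7 of 10 fibroblast and pericyte and 7 of 8 proliferation markers. Their part in the changes of the 9 genes was not tested.

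**Figure D2:**
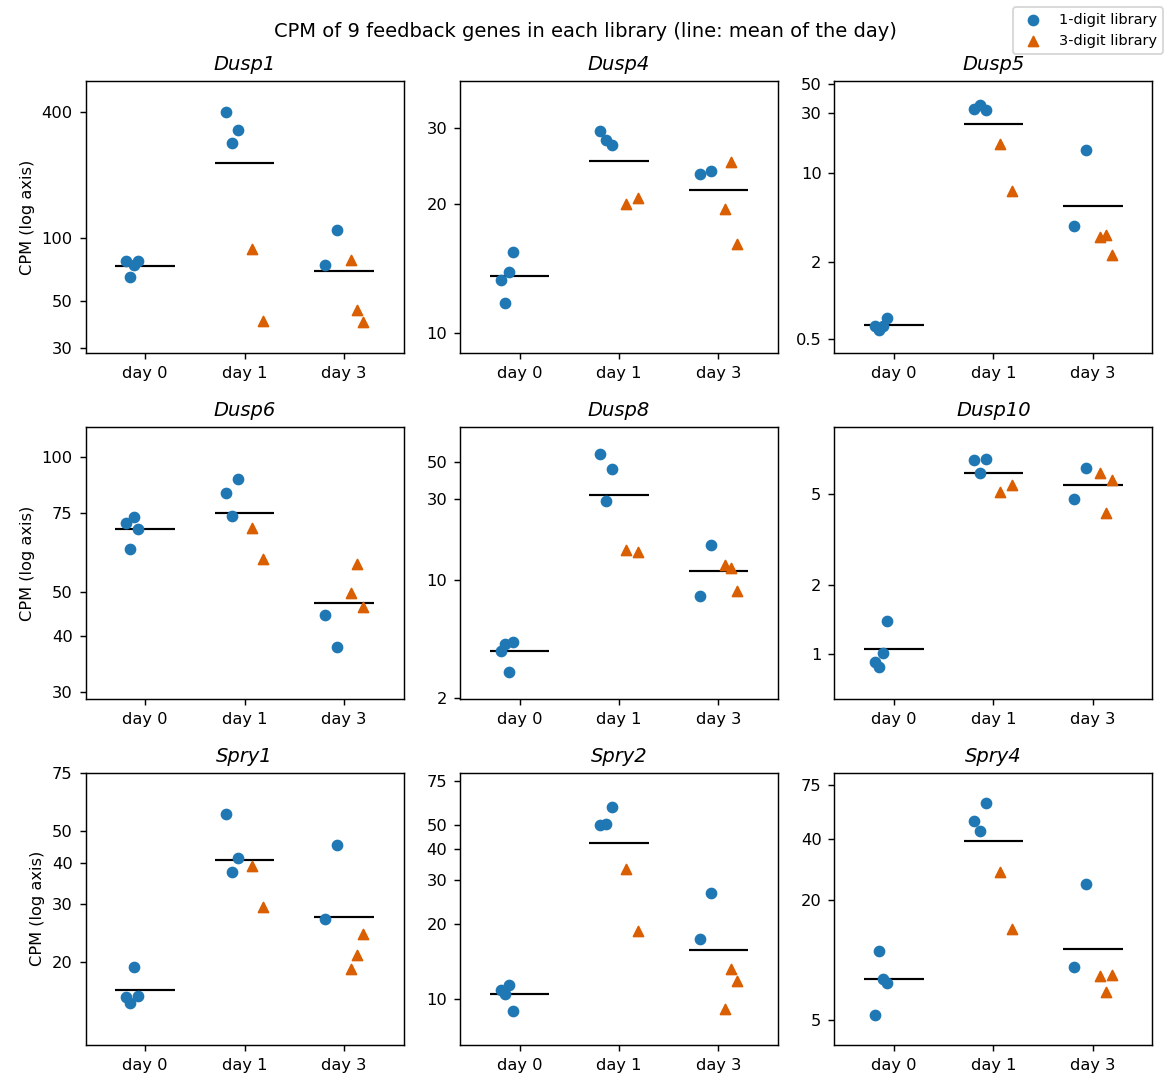
CPM (log axis) of each of the 9 genes in the 14 libraries by day, with circles for 1-digit and triangles for 3-digit libraries and a line at the mean of the day. Dusp4, Dusp5, Dusp8 and Dusp10 of every day 1 and day 3 library lie above day 0, Dusp6 of every day 3 library lies below it, and Dusp1 at day 1 splits into 3 circles from 284 to 399.9 CPM and 2 triangles at 40.1 and 88.7 CPM.

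Among the phosphatases of ERK, Dusp5, which encodes the nuclear ERK phosphatase, changed most. Its annotated gene lies at chr19:53529109-53542431 (GRCm38, plus strand, 4 exons). It was near the limit of detection at day 0, at 0.633, 0.588, 0.632 and 0.726 CPM in replicates 1 to 4, from 10 to 12 reads per library. By day 1 the 1-digit libraries gave 31.8, 34.6 and 31.5 CPM and the 3-digit libraries 17.1 and 7.27. At day 3 replicates 1 to 5 gave 3.16, 3.27, 2.28, 3.83 and 15.2 CPM. No library of either day overlapped day 0, and replicate 5 of day 3 stood above the other libraries of its day. Dusp5 was 37.5-fold higher at day 1 (log2 fold change 5.23 ± 0.68, SE, edgeR adjusted p = 9e-05). It was still 8.44-fold higher at day 3 (log2 3.08 ± 0.64, edgeR adjusted p = 0.0029), a value that became 2.28 on the log2 scale without day 3 replicate 5. The fall from day 1 to day 3 was 2.15 on the log2 scale (fitted change -2.15 ± 0.52, edgeR adjusted p = 0.015), and the change was -2.99 without day 3 replicate 5.

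Dusp6, which encodes the cytoplasmic ERK phosphatase, was the exception among the 9 genes. Its annotated gene lies at chr10:99263231-99267489 (plus strand, 3 exons) and no other annotated gene overlaps it. Day 0 replicates gave 71.3, 62.3, 73.3 and 69.1 CPM. At day 1 the 1-digit libraries gave 83.1, 74.0 and 89.2 CPM, above all of day 0, and the 3-digit libraries gave 69.6 and 59.3 CPM, within or below it. At day 3 replicates 1 to 5 gave 49.9, 57.8, 46.3, 44.6 and 37.8 CPM, all below day 0 and below day 1. The change at day 1 did not pass the test (log2 0.12 ± 0.14, edgeR adjusted p = 0.51). At day 3 Dusp6 was lower than at day 0 (log2 -0.55 ± 0.14, edgeR adjusted p = 0.0099) and lower than at day 1 (log2 -0.66 ± 0.13, edgeR adjusted p = 0.0072). It was the only 1 of the 9 genes whose day 3 libraries all lay below its day 1 libraries, which was so for 3.47% of all genes.

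Dusp4, a nuclear phosphatase with a broad choice of MAPK, moved least among the genes that rose. Its annotated gene lies at chr8:34807297-34819894 (plus strand, 4 exons). Day 0 replicates gave 13.3, 11.7, 13.8 and 15.4 CPM. Day 1 replicates 1 and 2 (3-digit) gave 19.9 and 20.6 CPM and replicates 3 to 5 (1-digit) gave 29.5, 28.2 and 27.3, and at day 3 replicates 1 to 5 gave 19.4, 25.0, 16.1, 23.5 and 23.8. No library of day 1 or day 3 overlapped day 0, and the formats did not overlap at day 1. Dusp4 rose at day 1 (log2 0.89 ± 0.17, edgeR adjusted p = 0.0014) and was higher at day 3 (log2 0.67 ± 0.17, edgeR adjusted p = 0.0093). The change between the later days did not pass the test (log2 -0.22 ± 0.16, edgeR adjusted p = 0.36).

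Dusp1, an immediate early gene whose product acts on JNK, p38 and ERK in the nucleus, was split by number format at day 1. Its annotated gene lies at chr17:26505590-26562128 (minus strand, up to 6 exons). It overlaps Ergic1 on the other strand, whose reads the stranded counts keep apart, and a processed pseudogene and a sense intronic transcript on its own strand, with which shared reads could go uncounted. Day 0 replicates gave 78.0, 65.4, 74.4 and 78.1 CPM. On day 1 the 1-digit libraries gave 399.9, 284 and 326 CPM, whereas the 3-digit libraries gave 88.7 and 40.1, on either side of the day 0 range. At day 3 replicates 1 to 5 gave 79.0, 45.5, 39.6, 74.5 and 109 CPM. The 1-digit libraries of day 1 lay above all others, and those of day 3 and the 3-digit ones of day 1 fell on both sides of the day 0 range. Over all libraries Dusp1 rose at day 1 (log2 1.62 ± 0.52, edgeR adjusted p = 0.023), and the call was lost without any 1 of day 0 replicates 1, 2 and 3 and day 1 replicates 3 and 5 (edgeR adjusted p from 0.0507 to 0.0588). Against day 0 the 1-digit libraries alone were 4.55-fold higher (log2 2.19 ± 0.27, edgeR adjusted p = 2.8e-05). The 3-digit libraries alone, in a separate fit with day 0, gave a log2 difference of -0.20 ± 0.33 (edgeR adjusted p = 0.65).

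Dusp1 at day 3 did not pass the test against day 0 (log2 -0.09 ± 0.50, edgeR adjusted p = 0.90). It fell from day 1 to day 3 (log2 -1.71 ± 0.49, edgeR adjusted p = 0.030). That call was lost without any 1 of day 1 replicates 3, 4 and 5 and day 3 replicates 1, 2, 3 and 4 (edgeR adjusted p from 0.0556 to 0.0783). Within the 1-digit libraries the fall was 3.66-fold (log2 -1.87 ± 0.35, edgeR adjusted p = 0.0018), and within the 3-digit libraries the change was -0.23 ± 0.32 (edgeR adjusted p = 0.67).

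Dusp8, which encodes a phosphatase of JNK and p38, was above day 0 in every library of days 1 and 3. Its annotated gene lies at chr7:142079490-142095843 (minus strand, up to 7 exons). Day 0 replicates gave 3.796, 4.18, 2.84 and 4.29 CPM. At day 1 the 1-digit libraries gave 55.7, 29.5 and 45.4 CPM and the 3-digit libraries 15.0 and 14.5, and at day 3 replicates 1 to 5 gave 12.3, 11.7, 8.61, 8.00 and 16.2 CPM. The day 3 libraries of the formats overlapped, whereas those of day 1 did not. Dusp8 was 8.45-fold higher at day 1 (log2 3.08 ± 0.41, edgeR adjusted p = 0.00011) and 3.00-fold higher at day 3 (log2 1.58 ± 0.39, edgeR adjusted p = 0.0074). It fell between those days (log2 -1.49 ± 0.35, edgeR adjusted p = 0.013). Within the 1-digit libraries this change was -1.85 ± 0.32 (edgeR adjusted p = 0.0012), and within the 3-digit libraries it was -0.44 ± 0.30 and did not pass the test (edgeR adjusted p = 0.35).

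Dusp10, which encodes a further phosphatase of JNK and p38, kept nearly the same level at days 1 and 3. Its annotated gene lies at chr1:184013302-184075636 (plus strand, up to 4 exons). Day 0 replicates gave 0.920, 0.883, 1.01 and 1.39 CPM, from 15 to 23 reads. At day 1 the 1-digit libraries gave 7.02, 6.17 and 7.08 CPM and the 3-digit libraries 5.12 and 5.50, and at day 3 replicates 1 to 5 gave 6.16, 4.11, 5.74, 4.77 and 6.46 CPM. The later libraries all lay above day 0, and those of day 1 and day 3 overlapped. Dusp10 was 5.84-fold higher at day 1 (log2 2.55 ± 0.24, edgeR adjusted p = 1.1e-05) and 5.16-fold higher at day 3 (log2 2.37 ± 0.24, edgeR adjusted p = 1.8e-05). The change from day 1 to day 3 was -0.18 ± 0.20 on the log2 scale (edgeR adjusted p = 0.58).

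The Sprouty genes rose together at day 1. Spry1, at chr3:37639947-37644598 (plus strand, up to 3 exons), gave 15.7, 15.0, 19.4 and 15.8 CPM at day 0. Day 1 replicates 1 and 2 (3-digit) gave 39.3 and 29.5 CPM and replicates 3 to 5 (1-digit) gave 56.3, 37.5 and 41.3, and at day 3 replicates 1 to 5 gave 19.1, 21.0, 24.4, 27.1 and 45.3 CPM. All of day 1 lay above day 0, and only replicate 1 of day 3 lay within its range. Spry1 rose at day 1 (log2 1.31 ± 0.25, edgeR adjusted p = 0.0011). It was also higher at day 3 (log2 0.73 ± 0.24, edgeR adjusted p = 0.031), a call lost without any 1 of day 0 replicates 1, 2 and 4 and day 3 replicates 4 and 5 (edgeR adjusted p from 0.0517 to 0.0817). Its value was 0.49 without day 3 replicate 5. From day 1 to day 3 the change was -0.57 ± 0.22 (edgeR adjusted p = 0.093), and it passed the test without day 1 replicate 2 (log2 -0.67, edgeR adjusted p = 0.046) or day 3 replicate 5 (log2 -0.85, edgeR adjusted p = 0.0060).

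Spry2, at chr14:105891947-105896819 (minus strand, 2 exons), gave 10.9, 10.5, 11.4 and 9.01 CPM at day 0. Day 1 replicates 1 and 2 (3-digit) gave 33.4 and 18.7 CPM, and replicates 3 to 5 (1-digit) gave 49.7, 50.1 and 58.8 CPM. At day 3 replicates 1 to 5 gave 9.11, 13.2, 11.8, 17.5 and 26.7 CPM. The 1-digit libraries were the higher ones on both days, and the 3-digit libraries of day 3 reached down into the day 0 range. Spry2 was 4.02-fold higher at day 1 (log2 2.01 ± 0.34, edgeR adjusted p = 0.00059) and fell by day 3 (log2 -1.43 ± 0.31, edgeR adjusted p = 0.0096). The remaining difference of day 3 from day 0 did not pass the test (log2 0.58 ± 0.33, edgeR adjusted p = 0.19).

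Spry4, at chr18:38586247-38601415 (minus strand, 2 exons), gave 5.29, 11.1, 8.02 and 7.68 CPM at day 0. Day 1 replicates 1 and 2 (3-digit) gave 27.3 and 14.3 CPM and replicates 3 to 5 (1-digit) gave 49.6, 44.2 and 61.1, and at day 3 replicates 1 to 5 gave 8.25, 6.87, 8.37, 9.21 and 23.9 CPM. The first 4 libraries of day 3 lay within the day 0 range and replicate 5 lay above it. Spry4 was 4.89-fold higher at day 1 (log2 2.29 ± 0.45, edgeR adjusted p = 0.0015) and fell by day 3 (log2 -1.80 ± 0.41, edgeR adjusted p = 0.011). At day 3 it was not called against day 0 (log2 0.49 ± 0.43, edgeR adjusted p = 0.39).

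**Figure D3:**
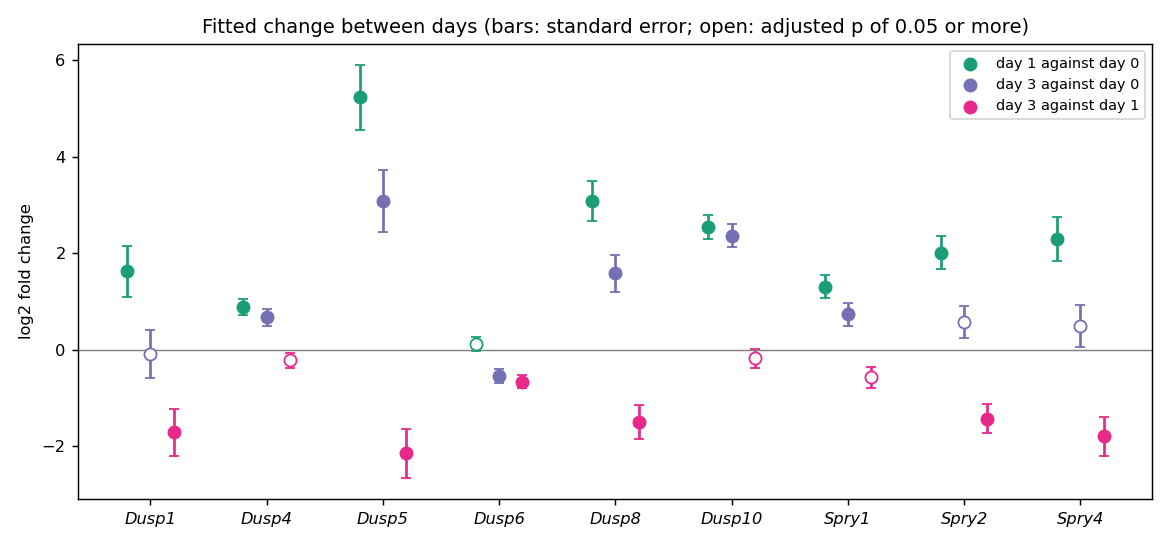
Fitted log2 fold changes of the 9 genes between days, with standard errors as bars and open points where the adjusted p was 0.05 or more. Dusp5 has the highest value at both days against day 0 (5.23 and 3.08), Dusp10 has nearly equal values (2.55 and 2.37), and Dusp6 is at 0.12 and -0.55.

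Within the 1-digit libraries, which day 0 shares, 8 of the 9 genes rose at day 1, as did 28.9% of all genes, and Dusp6 had a log2 difference of 0.25 ± 0.12 (edgeR adjusted p = 0.084), which passed the test without day 3 replicate 5 (log2 0.29, edgeR adjusted p = 0.043). At day 3 the 1-digit libraries were higher than day 0 in 7 of the 9 genes, against 28.6% of all genes, and lower in Dusp6, against 25.1%. Spry2 (log2 1.08 ± 0.23, edgeR adjusted p = 0.0018) and Spry4 (log2 1.05 ± 0.35, edgeR adjusted p = 0.023) were called here and not over all libraries. These values rest on 2 libraries of day 3. Without replicate 5 the value of Spry4 was 0.23 (edgeR adjusted p = 0.66) and those of Dusp5, Dusp8 and Spry1 moved from 3.87 to 2.58, from 1.67 to 1.11 and from 1.14 to 0.74. Without replicate 4 Spry4 stood at 1.58 and Dusp5 at 4.55. The Spry4 call was also lost without day 0 replicate 1 (log2 0.89, edgeR adjusted p = 0.058).

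The largest change within the 1-digit libraries of day 1 was that of Dusp5 (log2 5.65 ± 0.44), 50.1-fold, followed by Dusp8 (log2 3.52 ± 0.27), Spry4 (log2 2.69 ± 0.32), Dusp10 (log2 2.68 ± 0.24) and Spry2 (log2 2.34 ± 0.21). Dusp1 (log2 2.19 ± 0.27), Spry1 (log2 1.45 ± 0.20) and Dusp4 (log2 1.06 ± 0.15) changed less. The 3-digit libraries of days 1 and 3 were set against day 0 in a separate fit without the 1-digit ones of those days (14556 genes). There the differences from day 0 at day 1 were 4.23 ± 0.35 for Dusp5, 1.97 ± 0.21 for Dusp8, 1.38 ± 0.30 for Spry4, 2.33 ± 0.27 for Dusp10 and 1.32 ± 0.23 for Spry2. They were 1.07 ± 0.16 for Spry1 and 0.58 ± 0.18 for Dusp4.

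The 3-digit libraries alone, set against day 0, were higher in 7 of the 9 genes at day 1, where 22.9% of all genes were, and in 4 of the 9 at day 3, where 19.3% of all genes were. The genes not called at day 1 were Dusp1 and Dusp6, whose log2 difference was -0.10 ± 0.13 (edgeR adjusted p = 0.56). The genes higher at day 3 were Dusp4 (log2 0.57 ± 0.16, edgeR adjusted p = 0.023), Dusp5 (log2 2.16 ± 0.34, edgeR adjusted p = 0.0015), Dusp8 (log2 1.52 ± 0.19, edgeR adjusted p = 0.000507) and Dusp10 (log2 2.34 ± 0.25, edgeR adjusted p = 0.00020). Dusp6 was lower at day 3 in these libraries too (log2 -0.43 ± 0.11, edgeR adjusted p = 0.017).

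From day 1 to day 3, Dusp1, Dusp5, Dusp6, Dusp8, Spry2 and Spry4 fell within the 1-digit libraries, 6 of the 9 genes against 15.5% of all genes. Without day 3 replicate 4 the calls of Dusp5 (log2 -1.10, edgeR adjusted p = 0.060) and Spry4 (log2 -1.11, edgeR adjusted p = 0.069) were lost. Without day 3 replicate 5 the changes were larger, at -3.10 for Dusp5, -2.45 for Dusp8 and -2.49 for Spry4. Within the 3-digit libraries Dusp5 (log2 -2.07 ± 0.44, edgeR adjusted p = 0.011), Spry2 (log2 -1.19 ± 0.24, edgeR adjusted p = 0.0085) and Spry4 (log2 -1.41 ± 0.37, edgeR adjusted p = 0.026) fell, 3 of the 9 against 6.41% of all genes. None of the 3 was called without day 1 replicate 1, with values of -1.32, -0.72 and -0.87 (edgeR adjusted p of 0.16, 0.15 and 0.29). The call of Spry4 was also lost without day 3 replicate 2 (edgeR adjusted p = 0.060) or replicate 3 (edgeR adjusted p = 0.054), and Spry1 (log2 -0.67 ± 0.23, edgeR adjusted p = 0.068) was called without day 3 replicate 4 or 5 (edgeR adjusted p of 0.036 and 0.033). Spry1 was also called in a fit without the 1-digit libraries of days 1 and 3 (log2 -0.68 ± 0.17, edgeR adjusted p = 0.029).

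The formats were also compared with each other. At day 1, 6 of the 9 genes were lower in the 3-digit libraries, against 16.4% of all genes, and in 8 of the 9 both 3-digit libraries lay below all 1-digit libraries, against 29.4% of all genes. The median log2 difference was -1.02 over the 9 genes and 0.03 over all genes. Dusp1 differed most (log2 -2.39 ± 0.36, edgeR adjusted p = 0.00056; -3.08 without day 1 replicate 1), followed by Dusp8 (log2 -1.56 ± 0.31, edgeR adjusted p = 0.0028), Dusp5 (log2 -1.43 ± 0.44, edgeR adjusted p = 0.024; -2.18 without day 1 replicate 1) and Spry4 (log2 -1.31 ± 0.38, edgeR adjusted p = 0.018). Spry2 (log2 -1.02 ± 0.25, edgeR adjusted p = 0.0075) and Dusp4 (log2 -0.48 ± 0.18, edgeR adjusted p = 0.048) were called as well. Dusp10 (log2 -0.35 ± 0.26, edgeR adjusted p = 0.32), Spry1 (log2 -0.39 ± 0.23, edgeR adjusted p = 0.21) and Dusp6 (log2 -0.35 ± 0.14, edgeR adjusted p = 0.072) were not. Without day 1 replicate 2 only Dusp1 and Dusp8 remained called, with Dusp5 at -0.93, Spry2 at -0.66, Spry4 at -0.92 and Dusp4 at -0.51 (edgeR adjusted p from 0.11 to 0.23). The Dusp4 call was lost without any 1 library of day 0 or day 1 and without day 3 replicate 4, that of Dusp5 also without day 1 replicate 4 (edgeR adjusted p = 0.056) and that of Spry4 without day 1 replicate 5 (edgeR adjusted p = 0.053).

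At day 3, 3 of the 9 genes were lower in the 3-digit libraries, as were 8.22% of all genes. These were Dusp5 (log2 -1.71 ± 0.45, edgeR adjusted p = 0.022), Spry2 (log2 -0.96 ± 0.25, edgeR adjusted p = 0.021) and Spry1 (log2 -0.75 ± 0.23, edgeR adjusted p = 0.040). Without day 3 replicate 5 none was called, with values of -0.43, -0.64 and -0.35 (edgeR adjusted p from 0.21 to 0.54), and without day 3 replicate 3 none was called either (edgeR adjusted p from 0.055 to 0.076). The call of Spry1 was also lost without any 1 of day 3 replicates 1 and 2, day 0 replicates 1, 2 and 3 and day 1 replicate 5 (edgeR adjusted p from 0.0504 to 0.0946). The value of Dusp5 was -2.39 without day 3 replicate 4. Spry4 was called without that library (log2 -1.61, edgeR adjusted p = 0.012; -1.08 and 0.060 with it), and without replicate 5, its highest library of that day, its value was -0.25 (edgeR adjusted p = 0.73). A call was gained also for Dusp1 without day 3 replicate 1 (log2 -1.11, edgeR adjusted p = 0.016; -0.75 and 0.11 with it). Dusp6 was the only 1 of the 9 with a difference above 0, which did not pass the test (log2 0.32 ± 0.14, edgeR adjusted p = 0.13). The format difference itself differed between the days in Dusp1, Dusp8 and Dusp6, 3 of the 9 genes against 17.6% of all genes, a share not read as particular to them (log2 1.64 ± 0.47, 1.41 ± 0.44 and 0.67 ± 0.20). None of the 3 was called without day 1 replicate 2 (1.17, 1.38 and 0.55) or without day 1 replicate 3 (1.497, 1.187 and 0.658). The Dusp1 call was also lost without day 3 replicate 4, that of Dusp8 without any 1 of day 0 replicates 1 and 2, day 1 replicates 1 and 5 and day 3 replicates 1, 2 and 4, and that of Dusp6 without any 1 of day 0 replicates 1, 3 and 4, day 1 replicates 1 and 5 and day 3 replicates 2 and 5.

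**Figure D4:**
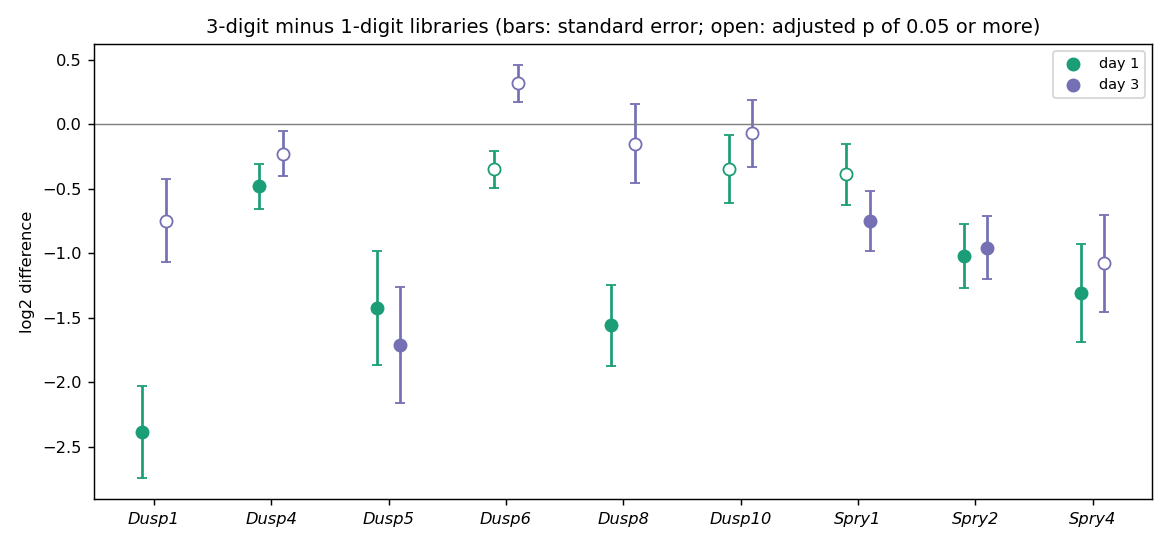
Fitted log2 difference between 3-digit and 1-digit libraries of the same day for each of the 9 genes, with standard errors as bars and open points where the adjusted p was 0.05 or more. At day 1 every value is below 0, from -0.35 to -2.39, and at day 3 only Dusp6 is above it, at 0.32.

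Markers of several cell types moved with the number format as well, where 18.6% of all genes were higher in the 3-digit libraries at day 1 and 10.3% at day 3. Lower levels in the 3-digit libraries were called for 16.4% of all genes at day 1 and 8.22% at day 3. At day 1 the summed level of 12 proximal tubule markers was 16624 to 24297 CPM in the 1-digit libraries and 6916 to 8336 in the 3-digit ones. At day 3 the order turned, with 3629 to 6053 CPM in the 1-digit libraries and 9118 to 18570 in the 3-digit ones. Of these 12 markers 7 were lower in the 3-digit libraries at day 1 and 7 higher at day 3. The 10 tubular injury markers summed to 9508 to 17663 CPM in the 1-digit and 32775 to 38346 in the 3-digit libraries of day 1, against 1331 to 1708 at day 0. That difference was carried by Spp1 (9701 and 27179 CPM) and Havcr1 (75.7 and 2437 CPM), the only 2 of the 10 that were called, and Havcr1, at 106 CPM at day 0, was not called between day 0 and the 1-digit libraries of day 1 (log2 -0.48 ± 0.53, edgeR adjusted p = 0.45). The other 9 injury markers were higher in those libraries than at day 0, and the median log2 difference of the list was 0.04. The level of 8 smooth muscle markers was 311 to 399 CPM in the 1-digit and 499 to 584 in the 3-digit libraries of day 1, where 7 of the 8 were called higher. At day 3 that order turned too, with 785 to 966 CPM in the 1-digit and 294 to 350 in the 3-digit libraries and 4 of the 8 called lower. At day 3, 10 endothelial markers summed to 696 to 1079 CPM in the 1-digit and 271 to 472 in the 3-digit libraries (7 of 10 called lower), and 10 macrophage markers to 133 to 143 and 277 to 484 (6 called higher and 1 lower). The 8 proliferation markers summed to 129 to 146 CPM in the 1-digit and 366 to 693 in the 3-digit libraries of day 3 (6 of 8 called higher). No marker of these lists was at 0 in all libraries of a group. The part of these differences in the levels of the 9 genes was not tested.

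The rest of the pathway was read from lists drawn up from general knowledge, with earlier results of these data known. Of all genes tested, 23.3% rose and 18.7% fell at day 1, and 19.5% were higher and 13.8% lower at day 3. Of 14 immediate early genes, which are transcribed within minutes of a stimulus, all rose at day 1 (median log2 3.798), and 10 were higher at day 3 (median 2.16). Those with the largest changes at day 1 were Fosb (0.286 CPM at day 0, 42.7 at day 1), Atf3 (1.93 and 263), Egr1 (7.48 and 378) and Fos (3.00 and 94.2), all of which encode transcription factors. Day 0 replicate 4 held most of the day 0 reads of Fos (163 of 199) and Egr1 (325 of 499), and without it the day 0 means were 0.718 CPM for Fos, 3.43 for Egr1, 0.139 for Fosb and 0.179 for Egr2 (0.316 with it). At day 3 they were Egr3 (from 2 reads in all at day 0), Egr2 (log2 3.50 ± 0.53), Atf3 (log2 3.17 ± 0.95) and Klf6 (log2 2.43 ± 0.42). At day 1, 11 of the 14 were lower in the 3-digit libraries, against 16.4% of all genes. Their summed level was 670 to 994 CPM in the 3-digit and 2500 to 4211 in the 1-digit libraries. Egr2 was higher in the 3-digit libraries (8.30 against 3.41 CPM). Fosb stood at 69.9 CPM in the 1-digit and 1.82 in the 3-digit libraries, and Atf3 at 422 and 24.1.

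Of 12 further genes known to respond to ERK, 7 rose and 2 fell at day 1 (median log2 2.80), and 6 were higher and 1 lower at day 3. Fosl1, a transcription factor gene with 2 reads in all at day 0, stood at 94.6 CPM at day 1. Plaur, which encodes the urokinase receptor, rose from 4.13 to 162 CPM (log2 5.29 ± 0.69), the receptor gene Epha2 from 10.3 to 149 CPM (log2 3.86 ± 0.55) and the ETS factor gene Etv4 from 0.901 to 11.2 CPM (log2 3.62 ± 0.52). Of the 12, 7 had lower levels in 3-digit than in 1-digit libraries of day 1, against 16.4% of all genes. The largest differences were those of Emp1 (log2 -2.30 ± 0.29) and Ier3 (log2 -1.95 ± 0.32).

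Upstream, 20 of 22 genes for growth factor receptors and their ligands were tested, and 4 rose and 6 fell at day 1, a share of rises no higher than over all genes (23.3%). Hbegf, which encodes an EGF receptor ligand, rose from 19.1 to 215 CPM (log2 3.49 ± 0.49), and Egf fell from 1995 to 306 CPM (log2 -2.70 ± 0.76). Areg, for another ligand of that receptor, was at 1 read in all at day 0 and 1.60 CPM at day 1, and Pdgfrb, the pericyte receptor gene, rose (log2 1.53 ± 0.34). Between the formats of day 1, Hbegf stood at 311 CPM (1-digit) and 70.7 CPM (3-digit), a log2 difference of -2.14 ± 0.29. At day 3, 3 were higher and 6 lower, with Egf at 85.5 CPM (log2 -4.54 ± 0.82).

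Among 18 genes of the ERK cascade itself, 7 rose and none fell at day 1, with a median log2 fold change of 0.31. Nras (log2 1.69 ± 0.19) and the adaptor genes Shc1 (log2 1.14 ± 0.21) and Grb2 (log2 0.82 ± 0.23) had the largest changes. At day 3, 4 of the 18 were higher, near the 19.5% of all genes, and 1, the kinase gene Map2k2, was lower (log2 -0.46 ± 0.12). Among 17 genes of the JNK and p38 cascades 7 rose and 3 fell at day 1 (median log2 0.28), the falls near the 18.7% of all genes. Mapk13 (log2 1.60 ± 0.33), Map2k3 (log2 1.59 ± 0.33) and Mapkapk2 (log2 1.55 ± 0.28) were higher and Mapk10, a JNK gene, was lower (log2 -2.84 ± 0.61). At day 3, 6 of the 17 were higher and 3 lower, the latter near the 13.8% of all genes.

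Other negative regulators were measured too. Of 4 further phosphatase genes, Dusp2 (0.332 to 3.93 CPM, log2 3.54 ± 0.54) and Dusp16 (41.0 to 63.2 CPM, log2 0.62 ± 0.18) rose at day 1. Of 9 further feedback genes tested, 3 rose and 1 fell at day 1, and the median log2 fold change was -0.08. Spred3, a Sprouty-related gene, rose from 0.812 to 11.97 CPM (log2 3.87 ± 0.56), Spred1 rose by 0.62 ± 0.14 and Dab2ip by 0.64 ± 0.18 on the log2 scale, and Il17rd fell (log2 -0.71 ± 0.18). At day 3, 1 of the 4 phosphatase genes and 2 of the 9 feedback genes were higher, near the 19.5% of all genes. These were Dusp2 (log2 1.74 ± 0.53), Spred3 (log2 3.98 ± 0.56) and Dab2ip (log2 0.56 ± 0.18).

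**Figure D5:**
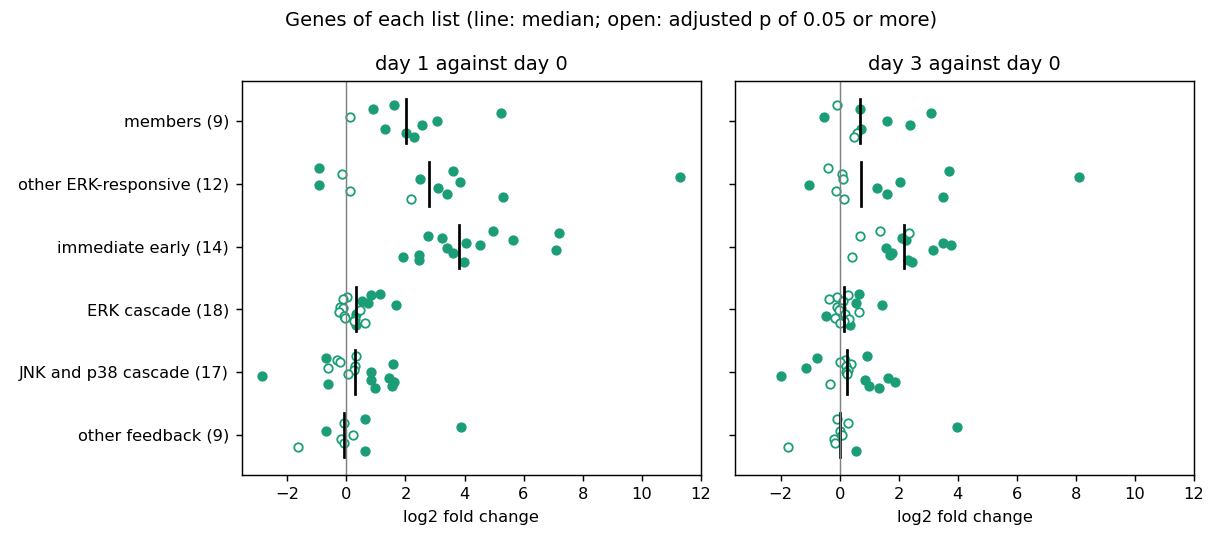
Log2 fold change against day 0 of the 9 genes and of genes in 5 lists of the same pathway at day 1 (left) and day 3 (right), 1 point per gene, open where the adjusted p was 0.05 or more, with a line at the list's median; the points of Fosl1 and Egr3, with 2 reads each at day 0, depend on the prior count. The median at day 1 is 2.01 for the 9 genes, 2.80 for other ERK-responsive genes, 3.798 for immediate early genes, 0.31 for the ERK cascade, 0.28 for the JNK and p38 cascades and -0.08 for other feedback genes.

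Finally, the genes with the most similar pattern were found by Pearson's r of log2 CPM over the 14 libraries, among 13317 genes with a mean of at least 1 CPM. The libraries share days and formats, so r describes them and was not tested. The pattern of Dusp1 was most like Tiparp (r = 0.978), Slc23a2 (0.964) and Ranbp9 (0.962), that of Dusp5 like Maff (0.987), Efhd2 (0.985) and Tnfrsf12a (0.983), and that of Dusp8 like Atf3 (0.985), Epha2 (0.978) and Tnfaip3 (0.978). Dusp10 was most like Sprr2g (0.986), Arl4c (0.985) and Clu (0.985), the last a tubular injury gene. With a prior count of 0.5 in place of 2 the genes most like Dusp10 were Clu, Slc25a24 and Arl4c, and those of the other 8 were the same. Dusp4 was most like 1110038B12Rik (0.948), Ddx23 (0.946) and Ewsr1 (0.940). Dusp6 was most like Cyba (0.935), Slc12a3 (0.919), the thiazide-sensitive transporter of the distal tubule, and Ggct (0.913). Spry1 was most like Ctgf (0.956), Pgf (0.950) and Rai14 (0.946), Spry2 like Actr3 (0.969), Dcaf13 (0.968) and Rbm8a (0.967), and Spry4 like Ppp2r2a (0.974), Creb3 (0.965) and Dcaf13 (0.961).

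Among themselves, Spry2 and Spry4 had the most similar pattern of any pair of the 9 genes (r = 0.959), followed by Dusp5 and Dusp8 (0.953) and Dusp5 and Spry1 (0.943). Dusp6 had r from -0.22 (with Dusp10) to 0.56 (with Dusp1). Dusp1 was most like Spry4 (0.835) and Spry2 (0.808), and had r of 0.34 with Dusp10.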

How the data were processed

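TRIzol was used for total RNA of mouse kidneys and Illumina TruSeq for the libraries. Per the submitters' processing notes, reads were handled with Trimmomatic and STAR on mm10 (versions not given in the sources used here). The authors deposited raw counts per gene, unstranded and per strand, and the column of the opposite strand, which held 98.5% to 98.7% of stranded reads, was used. Entries that name no gene (29.0% to 38.3% of reads) were left out. Counts were filtered (filterByExpr) and scaled by TMM, and tested in R 4.3.3 with edgeR 4.0.16 (quasi-likelihood test, Benjamini-Hochberg adjustment over 14300 genes, threshold 0.05), with 1 term per day, or per day and number format for results within or between formats. CPM use TMM-scaled totals, and log2 CPM a prior count of 2. SE were derived from the F value. The 3-digit libraries alone were set against day 0 in a separate fit, with its own filter (14556 genes), scaling and adjustment. Tested on simulated counts, the day 1 against day 0 fit recovered 181 of 200 genes changed by 2 on the log2 scale. It made 8 false calls among 14141 genes. The fits between formats recovered 172 at day 1 and 166 at day 3, with 13 and 6 false calls. The simulated spread was that of the day and format fit, and no format difference was added for the day fit. That run thus does not cover the format difference seen at day 1. Pairs of libraries of 1 day all differed by more than counting noise (chi-square over degrees of freedom, 5.69 to 228). Gene models came from GENCODE for GRCm38 and promoters from RefSeq. DESeq2 1.42.0 was an alternative, beside other scalings and filters, a fold threshold, a block on replicate number, format terms and leaving out each library. Full values are given for all 9 genes, and from each pathway list up to 4 called genes with the largest change were named, except 1 that is not reported here. The members and lists were chosen with earlier results of these data known.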

Additional observations from a re-analysis of the deposited data

Results flagged for a closer look

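Dusp5 of day 3 replicate 5 stood far from the other libraries of its day, at 3.94 log2 CPM against 1.26 to 1.98. Spry4 of the same library did too, at 4.59 log2 CPM against 2.81 to 3.22. Of 27 sets of a gene and a day examined in this way 2 stood out, where chance gives about 1.35.

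The difference between number formats changed from day 1 to day 3 by 1.64 on the log2 scale for Dusp1 (edgeR adjusted p = 0.030), by 1.41 for Dusp8 (edgeR adjusted p = 0.041) and by 0.67 for Dusp6 (edgeR adjusted p = 0.038). Of 14 fits that each left out 1 library, the call of Dusp1 was lost in 3 and those of Dusp8 and Dusp6 in 9 each. For Dusp6 the difference between formats did not pass the test at day 1 (log2 -0.35, edgeR adjusted p = 0.072) or at day 3 (log2 0.32, edgeR adjusted p = 0.13). What the number format stands for is not given in the sources used here, and its part was not tested.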

How the results depend on the processing

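A test against an absolute log2 fold change of 1 in edgeR called 5 of the 9 genes at day 1 and 2 at day 3 against day 0, and 0 from day 1 to day 3, over all libraries or within either format. Of all 14300 genes it called 848, 822 and 6 between days, and 370 and 108 within the 1-digit and 3-digit libraries. In that test the 1-digit libraries of day 3 gave 3 calls (2042 of all genes), the formats 1 at day 1 (272) and 0 at day 3 (74), and the difference between format effects 0 (354). Total counts without TMM left 1 call for that last difference (2798 of all genes), and 5 and 2 calls between formats at days 1 and 3 (5348 and 2627). Leaving out 1 library gave 7 to 8 genes at day 1 and 5 to 6 at day 3 against day 0, 5 to 7 from day 1 to day 3, 8 to 9 and 7 to 8 for the 1-digit libraries against day 0, 2 to 6 and 0 to 4 between formats at days 1 and 3, 0 to 3 for their difference, and 4 to 6 and 0 to 4 from day 1 to day 3 within 1-digit and 3-digit libraries.

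With the replicate number as a block, 7, 5 and 6 genes were called at day 1 and day 3 against day 0 and from day 1 to day 3 (5162, 4103 and 2044 of all genes, against 6020, 4757 and 2276 without the block). On days 1 and 3, replicates 1 and 2 were 3-digit and replicates 4 and 5 were 1-digit, so this block partly overlaps the format. Dusp1 at day 1 (log2 1.17, edgeR adjusted p = 0.090), Spry1 at day 3 (0.57, edgeR adjusted p = 0.050) and Dusp1 from day 1 to day 3 (-1.49, edgeR adjusted p = 0.053) were lost, and Spry1 from day 1 to day 3 was gained (-0.62, edgeR adjusted p = 0.043). With a format term, Spry2 (1.10, edgeR adjusted p = 0.0011) and Spry4 (1.12, edgeR adjusted p = 0.012) were called at day 3. Same-numbered libraries correlated from -0.17 to 0.26, with 4 of 13 pairs over 0.1. Differently numbered libraries were not correlated for comparison, so these values do not settle whether the numbers pair the libraries.

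Signs also turned, in values that were not called except where named, and the cause was not tested. Dusp1 at day 3 against day 0 was 0.041 without TMM, 0.86 with a format term and 0.33 in 1-digit libraries. In 3-digit libraries alone Dusp1 (-0.20) and Dusp6 (-0.10) at day 1, Spry4 (-0.032) at day 3 and Dusp10 (0.0063) from day 1 to day 3 turned, and of these Dusp1 was called over all libraries. Without TMM, the difference between format effects of Spry2 was -0.094 and the change of Dusp4 within 3-digit libraries 0.038, which was 0.0105 with at least 10 counts in every library. Leaving out 1 library, Dusp1 at day 3 ranged from -0.30 to 0.032, the day 3 format difference of Dusp8 from -0.57 to 0.42 and of Dusp10 from -0.28 to 0.14, and the difference between format effects of Dusp5 from -0.96 to 1.01, Spry1 from -0.69 to 0.045, Spry2 from -0.30 to 0.56 and Spry4 from -0.30 to 1.06. From day 1 to day 3, Spry1 within 1-digit libraries ranged from -0.74 to 0.011, and within 3-digit libraries Dusp1 from -0.70 to 0.45, Dusp4 from -0.19 to 0.13 and Dusp10 from -0.10 to 0.16. DESeq2 called 8, 6 and 6 of the 9 at day 1 and day 3 against day 0 and from day 1 to day 3 (6675, 5528 and 3295 of all genes), 7 and 4 between formats at days 1 and 3 (5484 and 3524), and 3 for the difference (3212). Other scalings moved no mean CPM of a gene and day by more than 1 SD (54 means, -8.43% to 7.53%). Depth limits Dusp5 and Dusp10 at day 0 most.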
